A study of Arabidopsis thaliana with 14 samples.

Results

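The step from 2 h to 6 h of continued auxin treatment in wild-type Arabidopsis thaliana roots was examined, as 2 ATH1 arrays of Col-0 after 6 h of NAA against 2 arrays of Col-0 after 2 h of NAA, chosen by sample title. These are 4 of the 14 arrays of the series, which fall into 7 groups of 2 biological replicates. A probe set was tested when both arrays of at least 1 group exceeded a signal of 218, which kept 14883 of 22746 probe sets after 64 controls were set aside. The probe sets nearest that threshold had a deciding signal of 218.1 when kept and 218.0 when dropped. Col-0 is the wild-type accession. All groups were germinated on 10 µM NPA, which blocks polar auxin transport. For the 2 h and 6 h NAA groups, seedlings were moved at 3 days to medium with 10 µM NAA, a synthetic auxin. RNA came from root segments that exclude the meristem at the tip and the hypocotyl above, with about 1500 seedlings pooled per time point, so each array averages many roots and many cell types. The other groups used for comparison were Col-0 at 0 h, Col-0 after 6 h of mock treatment, and the slr-1 mutant at each of 0 h, 2 h and 6 h of NAA, all likewise germinated on NPA. The slr-1 mutant has a gain-of-function allele of IAA14, which encodes an Aux/IAA repressor, and the series calls it defective in lateral roots. There was no mock group at 2 h and none in slr-1 among the arrays, so in the comparison of 6 h with 2 h the duration of NAA and the time after transfer change together and cannot be told apart.

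Auxin promotes the breakdown of Aux/IAA repressors and thereby frees ARF transcription factors, which switch on early genes such as those of the Aux/IAA, GH3 and LBD families. In the root, pericycle cells opposite the xylem respond by re-entering the cell cycle and dividing asymmetrically, the start of a lateral root. NPA holds this process back, and a sudden supply of NAA then starts it along the root at about the same time, so that early signalling, growth and DNA replication follow each other over hours.

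All values are MAS5.0 signals, and every array had the same trimmed mean of 1000.1. Median signals lay between 365.5 and 383.8 on the 4 compared arrays. Across probe sets, whose values depend on each other, the replicates correlated at 0.977 for 2 h and 0.974 for 6 h. Outside the main comparison, slr-1 6 h replicate 2 had a maximum of 29349.7 against at least 58837 on the others, and slr-1 0 h replicate 2 a GAPDH 3' to 5' ratio of 1.162 against 0.546 to 0.742. Changes are differences of log2(signal + 18.9) with their standard error (SE), and each adjusted p comes from limma with Benjamini-Hochberg adjustment over all tested probe sets. An exact permutation test of 2 against 2 arrays cannot give a two-sided p below 0.333. Of the markers of other root and shoot cell types looked up by symbol, none of 5 for root cap, 14 for xylem, 7 for phloem or 11 for endodermis had a named probe set, so the cell types of the segment were checked only in part.

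In Col-0, from the 2 h to the 6 h arrays, 2304 probe sets were higher and 2624 lower at an adjusted p under 0.05, together 4928 or 33.1% of those tested (15.5% higher and 17.6% lower). The rises reached further than the falls. At least 2-fold changes numbered 1271 up and 970 down, at least 4-fold 204 and 174, and at least 8-fold 46 and 21. The median change of all tested probe sets was -0.06, that of the probe sets called higher 1.06 and that of those called lower -0.84. The arrays of both times did not overlap for 72% of all tested probe sets, so the lack of overlap alone is common here. Of 7994 genes with a probe set of their own, 1248 rose and 1289 fell, and in 87 genes with more than 1 tested probe set none was called in opposite directions. Counts of gene lists below are over the members that passed the signal threshold, which a gene can pass through the group where it is high, and are to be read against 15.5% and 17.6%. Without Col-0 6 h replicate 1 the counts were 1410 and 1561, without 2 h replicate 1 they were 1541 and 1676, and without 2 h replicate 2 they were 1708 and 1718.

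**Figure D1:**
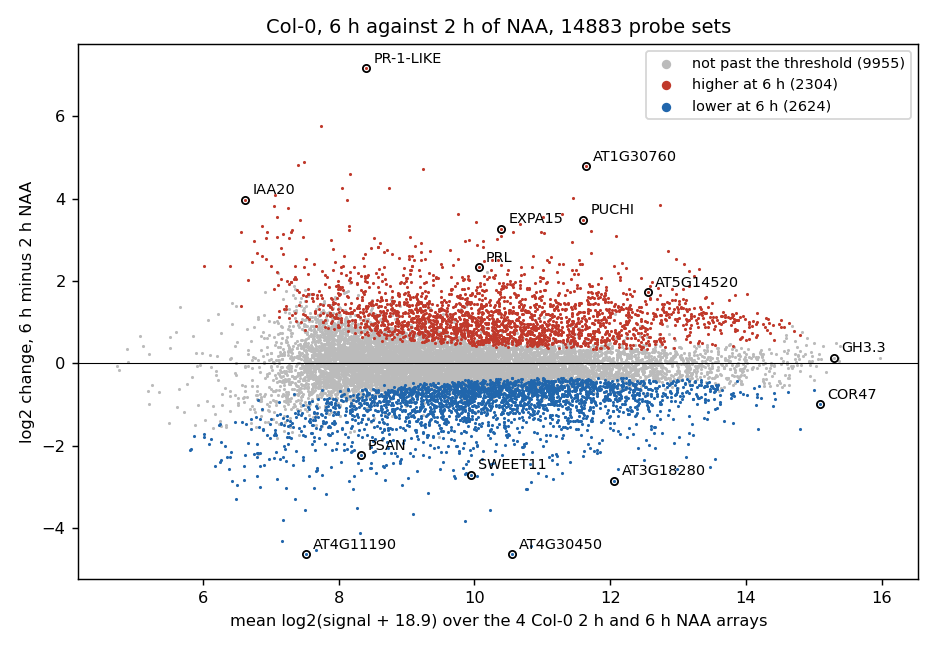
Log2 change from 2 h to 6 h of NAA in Col-0 (y axis) against the mean log2(signal + 18.9) of the 4 arrays (x axis) for 14883 probe sets, with the 2304 called higher in red, the 2624 called lower in blue and the others in grey. The highest labelled point is PR-1-LIKE at 7.16 and the lowest are AT4G11190 and AT4G30450 at -4.64 and -4.63, while GH3.3 lies near 0 at the right edge.

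Among the regulators of lateral root formation, PUCHI rose between 2 h and 6 h, while LBD16 and LBD29 were already high at 2 h and did not pass the test. PUCHI (AT5G18560) encodes an AP2/ERF transcription factor needed for orderly divisions in the lateral root primordium. Its signal was 941.8 and 875.8 on the 2 h arrays and 11381 and 9396 on the 6 h arrays, a 11.4-fold rise (3.48, SE 0.29, adjusted p = 3.08e-06). The arrays of both times lay far apart, and the 0 h arrays were lower than either, at 106.9 and 66.4. LBD16 (AT2G42430), a LOB-domain factor for founder cell divisions, read 6263 and 5485 on the 2 h arrays and 8484 and 7375 on the 6 h arrays (0.43, SE 0.17, adjusted p = 0.074). Its arrays did not overlap, but the change was small, and LBD16 passed the test when only the 4 compared arrays were fitted (adjusted p = 0.0281) or without either slr-1 0 h array (adjusted p = 0.0415 and 0.0412). LBD29 (AT3G58190), its close relative, read 10342 and 8655 on the 2 h arrays and 13989.8 and 11781 on the 6 h arrays (0.44, SE 0.40, adjusted p = 0.429), and also passed with only the 4 compared arrays (adjusted p = 0.0352). In mock-treated roots at 6 h the 3 genes were at 121.3 and 152.7, 480.4 and 463.9 and 168.9 and 32.2, in that order.

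Genes of auxin feedback divided in the same way. GH3 enzymes couple auxin to amino acids and so lower its free level. GH3.3 (AT2G23170) read 39917 and 37074 on the 2 h arrays and 43359.8 and 41304 on the 6 h arrays, near the top of the signal range at both times (0.14, SE 0.28, adjusted p = 0.741). GH3.1 (AT2G14960) rose from 4965 and 3972 to 14878 and 13871 (1.69, SE 0.43, adjusted p = 0.00788), a call that was lost without Col-0 6 h replicate 1 (adjusted p = 0.0597), without 2 h replicate 2 (adjusted p = 0.065) and with an offset of 1 (adjusted p = 0.0502). Of 4 tested GH3 genes 2 were higher, GH3.1 and GH3.17 (0.85, and 0.66 without Col-0 6 h replicate 1). Unlike GH3.1, GH3.17 was lower at 2 h, at 2061.0 and 2058.3, than its 0 h mean of 3860.6. Its 6 h arrays, at 4265.9 and 3265.4, lay on either side of that mean.

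Of 4 tested Aux/IAA genes, which encode the repressors that auxin removes, 2 were higher and 0 lower (median 1.05). IAA29 (AT4G32280) rose from 2009.6 and 1951 to 6588 and 6087 (1.67, SE 0.28, adjusted p = 0.000483), after it had already left its 0 h signals of 73.5 and 193.3. IAA20 (AT2G46990), which lacks the motif for auxin-dependent breakdown, stood at 6.2 and 5.9 at 2 h, at 18.7 and 7.7 at 0 h and at 412.1 and 334.9 at 6 h (3.97, SE 0.84, adjusted p = 0.00252). IAA20 was therefore at the floor of the array at 0 h and 2 h, and its log2 change is compressed by the added 18.9. LAS (AT1G55580), a GRAS-family regulator of axillary meristems in the shoot, rose from 575.3 and 725.8 to 1577 and 1329 (1.14, adjusted p = 0.00103).

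The largest rises were of genes that were near the floor at 2 h. PR-1-LIKE (AT2G19990), named for its likeness to a pathogenesis-related protein, read 5.1 and 14.6 on the 2 h arrays and 5130.1 and 3182 on the 6 h arrays (7.16, SE 0.83, adjusted p = 3.79e-05). Its 0 h arrays read 84.9 and 4.9 and its mock arrays 60.7 and 10.9, so among the Col-0 groups only the 6 h NAA arrays were high. Its change in Col-0 minus that in slr-1 was 4.37, with an interval of 1.84 to 6.91 (95%). Of the 3 loci AT3G57950, AT2G03740 and AT1G05577, none had a 2 h signal above the added 18.9 except 1 array of AT2G03740. AT3G57950 rose from 9.0 and 11.3 to 1953 and 1258, AT2G03740 from 8.5 and 20.5 to 898.4 and 1025 and AT1G05577 from 9.6 and 16.4 to 1059 and 721.7, with log2 changes of 5.77, 4.90 and 4.82. Each of the 3 was below 30 on every 0 h and mock array of Col-0, so that the 6 h NAA arrays again stood alone among the Col-0 arrays.

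Other large rises began from a measurable level. AT1G30760 read 120.8 and 33.2 at 0 h, 463.3 and 749.3 at 2 h and 18110.3 and 15528 at 6 h (4.79, SE 0.42, adjusted p = 4.66e-06), so most of its rise in signal came after 2 h. AT5G14650 was 179.6 and 160.7 at 0 h, 70.0 and 88.4 at 2 h and 1811 and 1912 at 6 h (4.27, SE 0.40, adjusted p = 6.89e-06). AT5G47550 rose from 535.9 and 630.0 to 7300.2 and 6733 (3.55, adjusted p = 1.1e-05) and AT1G67750 from 1042 and 1139 to 10229 and 10330.3 (3.22, adjusted p = 6.03e-05). The sources used here give these loci no gene name. AT1G29980 had 2 h signals of 230.1 and 418.6, no higher than its 0 h signals of 302.7 and 502.7, and reached 2829.5 and 2353 at 6 h (2.98, adjusted p = 2.81e-05).

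**Figure D2:**
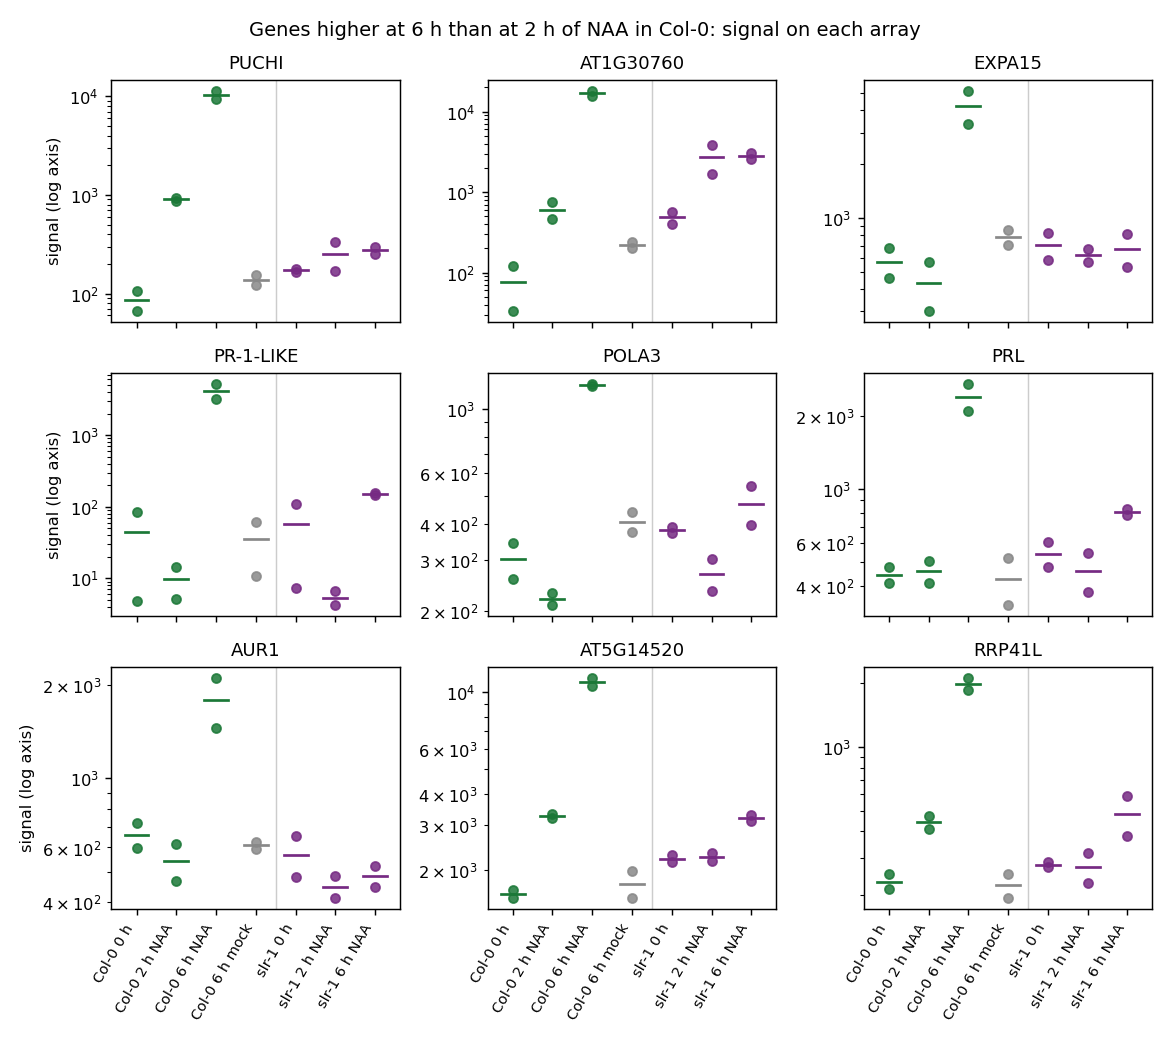
Signal on each array (points, log axis) and group mean (bars) of 9 genes that rose from 2 h to 6 h of NAA in Col-0, by group, with Col-0 NAA and 0 h arrays in green, mock in grey and slr-1 in purple. In each panel both Col-0 6 h NAA arrays are the highest of the Col-0 arrays, and PUCHI, AT1G30760 and AT5G14520 had already risen above 0 h at 2 h while EXPA15, POLA3 and AUR1 had not.

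Genes of the cell wall moved in both directions. Expansins loosen the wall and permit growth, and of 12 tested expansin genes 4 were higher and 2 lower (median 0.31). The lower count was 1 without Col-0 2 h replicate 1, Col-0 6 h replicate 2 or any slr-1 array of 0 h or 6 h, and also with no filter, with no trend of the variance or with only the compared arrays. EXPA15 (AT2G03090) read 301.3 and 563.8 on the 2 h arrays and 5139 and 3361 on the 6 h arrays (3.27, SE 0.31, adjusted p = 8.47e-06), with 0 h arrays at 461.6 and 677.2. EXPA4 (AT2G39700) rose from 7383 and 11519.9 to 32227 and 27491 (1.69, adjusted p = 0.000382) and EXPA9 (AT5G02260) from 407.9 and 412.4 to 1848 and 1183 (1.80, adjusted p = 0.000254). EXPA9 is an exception to the contrast with mock, whose arrays read 1318 and 741.6 (0.57, adjusted p = 0.105 for 6 h NAA against mock, a comparison that called 45.4% of probe sets). The expansin-like EXLA1 (AT3G45970) went the other way, from 2452 and 2184 to 1007 and 766.6 (-1.38, adjusted p = 0.0018).

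Of 13 tested genes for cellulose-like chains and wall glucanases 4 rose and 3 fell. All 4 that rose belong to the GH9 family of endoglucanases, with GH9C2 (AT1G64390) from 6813 and 9948 to 25181 and 26534 (1.65, adjusted p = 0.000187). Without Col-0 2 h replicate 1, 1 gene of the list was higher, and 2 were without either 6 h replicate. The 3 that fell were CSLC04 (AT3G28180), a xyloglucan backbone synthase (from 4388 and 4155 to 1884 and 2026, -1.12, adjusted p = 0.000448), CSLD2 (AT5G16910), which acts in root hairs (-1.10), and COB, which orients cellulose (-0.80). Of 5 genes for xyloglucan-remodelling enzymes 4 were lower and 0 higher, EXGT-A3 with the firmest call (-0.70, adjusted p = 0.00106), but only 1 was called without Col-0 2 h replicate 1, without 2 h replicate 2 or without 6 h replicate 1, and 2 without 6 h replicate 2. In the TBL family, whose members add acetyl groups to wall polymers, TBL36 (AT3G54260) rose from 702.7 and 1372 to 9130.4 and 6522 (2.95, adjusted p = 0.000221) and TBL39 rose by 1.17, whereas TBL38 and TBL37 changed by -1.12 and -1.02. In all 2 of 17 tested TBL genes were higher and 3 lower.

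Most tested genes of DNA replication rose. All 11 annotated genes of replication and new chromatin were tested, and 9 were higher and 0 lower (median 1.3, against -0.05 over all genes). POLA3 (AT5G41880), the primase partner of DNA polymerase alpha, read 210.7 and 230.3 on the 2 h arrays and 1201 and 1217 on the 6 h arrays (2.36, SE 0.23, adjusted p = 1.04e-05). PRL (AT4G02060), the MCM7 subunit of the replicative helicase, read 505.9 and 411.9 on the 2 h arrays and 2697 and 2099 on the 6 h arrays (2.33, SE 0.24, adjusted p = 1.76e-05), and ICU2 (AT5G67100), the catalytic subunit of polymerase alpha, 175.4 and 243.5 on the 2 h arrays and 906.9 and 713.3 on the 6 h arrays (1.87, SE 0.30, adjusted p = 0.00038). PSF2 (AT3G12530), of the GINS complex that joins the helicase, rose from 114.6 and 126.9 to 453.1 and 523.3 (1.86, adjusted p = 0.00382). These genes were close to their 0 h level at 2 h: PRL had been 476.6 and 412.6 at 0 h and POLA3 258.6 and 345.4. The others that rose were the delta polymerase subunit POLD3 (1.22), TOPII for topoisomerase II (1.68), the histone chaperone ASF1B (1.3) and the H2B genes HTB2 (1.02) and HTB1 (0.54). The remaining 2, also of H2B, missed the threshold. The HTB1 call was close to the threshold (adjusted p = 0.0462). It was lost with no filter (adjusted p = 0.068), with no trend of the variance (0.0554) and with the replicate block (0.0571). Without Col-0 6 h replicate 1 the calls of topoisomerase II (adjusted p = 0.0669), HTB2 (0.399) and HTB1 (0.259) were lost. The count was 6 without Col-0 6 h replicate 1, and 5 when signals had to exceed the pooled 60th percentile, where fewer of the genes were tested.

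Division genes rose in part. Of 20 tested genes of mitosis and cytokinesis 6 were higher and 2 lower (median 0.72). AUR1 (AT4G32830), an Aurora kinase of mitotic chromosomes, read 614.1 and 468.6 on the 2 h arrays and 2103 and 1455 on the 6 h arrays (1.67, SE 0.23, adjusted p = 0.000105). BUB3.1 (AT3G19590), of the spindle checkpoint, rose from 206.7 and 325.5 to 1045 and 772.5 (1.72, adjusted p = 0.00156), and 3xHMG-box2 (AT4G23800), which associates with mitotic chromosomes, from 372.3 and 467.4 to 2380.4 and 1184 (1.96, adjusted p = 0.00143). The 2 replicates of 3xHMG-box2 at 6 h were themselves far apart. ATMAP65-6 (-0.85), a microtubule bundling protein, and KEU (-0.37), which serves vesicle fusion, were the 2 lower ones, and neither was called without Col-0 2 h replicate 2, while the lower count was 1 without any other single array of the 4 compared. AUR3 at 1.04 and the centromere histone gene HTR12 at 1.14 did not pass, but did when only the compared arrays were fitted (adjusted p = 0.0196 and 0.0396). The count of higher genes was 4 without Col-0 2 h replicate 1 or without 6 h replicate 1. Of 9 tested genes of DNA repair 4 were higher, with TOP3A (AT5G63920) from 153.3 and 184.9 to 442.3 and 410.3 (1.25, adjusted p = 0.00561), and none was called without Col-0 2 h replicate 1 (TOP3A adjusted p = 0.0504), 1 without 6 h replicate 1 and 2 without 6 h replicate 2.

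Most genes for the making of ribosomes rose as well. All 15 annotated genes were tested, and 13 were higher and 0 lower (median 1.26), and between 12 and 14 were higher in every alternative setting and without any single array. AT5G14520, the pescadillo homologue PES of large-subunit assembly, read 3220.2 and 3319 on the 2 h arrays and 11358 and 10498 on the 6 h arrays (1.73, SE 0.14, adjusted p = 2.25e-06), having started from 1559 and 1677 at 0 h. NRPA2 (AT1G29940), the second-largest subunit of RNA polymerase I, which transcribes ribosomal DNA, rose from 2009 and 2178 to 4873 and 5235 (1.26, SE 0.14, adjusted p = 2.98e-05). NRPC2 (AT5G45140), its counterpart in RNA polymerase III, rose from 444.6 and 393.4 to 1358 and 1160.3 (1.54, adjusted p = 0.000343). At 2 h against 0 h, where 17.6% of probe sets were called, NRPA2 had changed by 0.71, adjusted p = 0.0034, and NRPC2 stood at -0.10, adjusted p = 0.822. RRP41L (AT4G27490), related to an exosome subunit, rose from 412.5 and 470.4 to 2119 and 1850.1 (2.12, adjusted p = 4.25e-05), the nucleolar YAO (AT4G05410) from 1445 and 1259 to 3741 and 3457 (1.4, adjusted p = 0.00011) and the helicase gene AT3G09720 (RH57) from 567.6 and 550.5 to 1679 and 1512 (1.48, adjusted p = 0.000495). The 2 members that did not pass were the ribosomal RNA methyltransferase genes DIM1A (0.57) and DIM1B (0.51).

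Other genes of gene expression and protein folding rose as well. All 6 tested subunits of RNA polymerase II and the related polymerases IV and V were higher (median 0.94), with NRPE7 (AT4G14660), of polymerase V, from 115.7 and 165.2 to 769.3 and 445.9 (1.94, adjusted p = 0.000888) and the shared subunit gene NRPB12 (AT5G41010) from 2025 and 1967 to 4925 and 3685 (1.09, adjusted p = 0.00221). The count was 3 without Col-0 2 h replicate 1 or without 6 h replicate 1. Among 21 splicing and mRNA-binding genes 6 were higher and 0 lower (median 0.29), among them the spliceosome-associated MAC3A (AT1G04510, from 1949.7 and 2005 to 3975 and 3714, 0.95, adjusted p = 0.000154) and PRP39 (0.70, adjusted p = 0.00177). The count was 2 without Col-0 2 h replicate 1 and 3 without 2 h replicate 2 or 6 h replicate 1. All 3 plastid chaperonin genes tested were higher, Cpn60beta2 (AT3G13470) from 2669 and 2478 to 5099 and 6267 (1.13, adjusted p = 0.00522) and Cpn60beta3 by 0.63.

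Of 20 genes for folding in the endoplasmic reticulum and for co-chaperones 4 were higher and 1 lower, so that the share higher was near the 15.5% of all probe sets. With only the compared arrays fitted 7 were higher, and without Col-0 2 h replicate 1 none was lower. Those higher included the calreticulin gene CRT1b (AT1G09210, from 3067 and 3702 to 6673 and 7020.5, 1.02, adjusted p = 0.00047), the DnaJ gene ATERDJ3B (AT3G62600, from 2505 and 3002 to 5086 and 5975, 1.00, adjusted p = 0.000316) and the co-chaperone Hop1 (0.99). None of the 3 bZIP sensors of unfolded proteins in the list passed. By contrast none of 14 tested genes of the citric acid cycle and respiration was called (median 0.08, range -0.31 to 0.41), though 1 was higher with quantile normalization, with only the compared arrays or without either slr-1 0 h array, and none of 9 mitochondria-encoded genes (median -0.28).

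**Figure D3:**
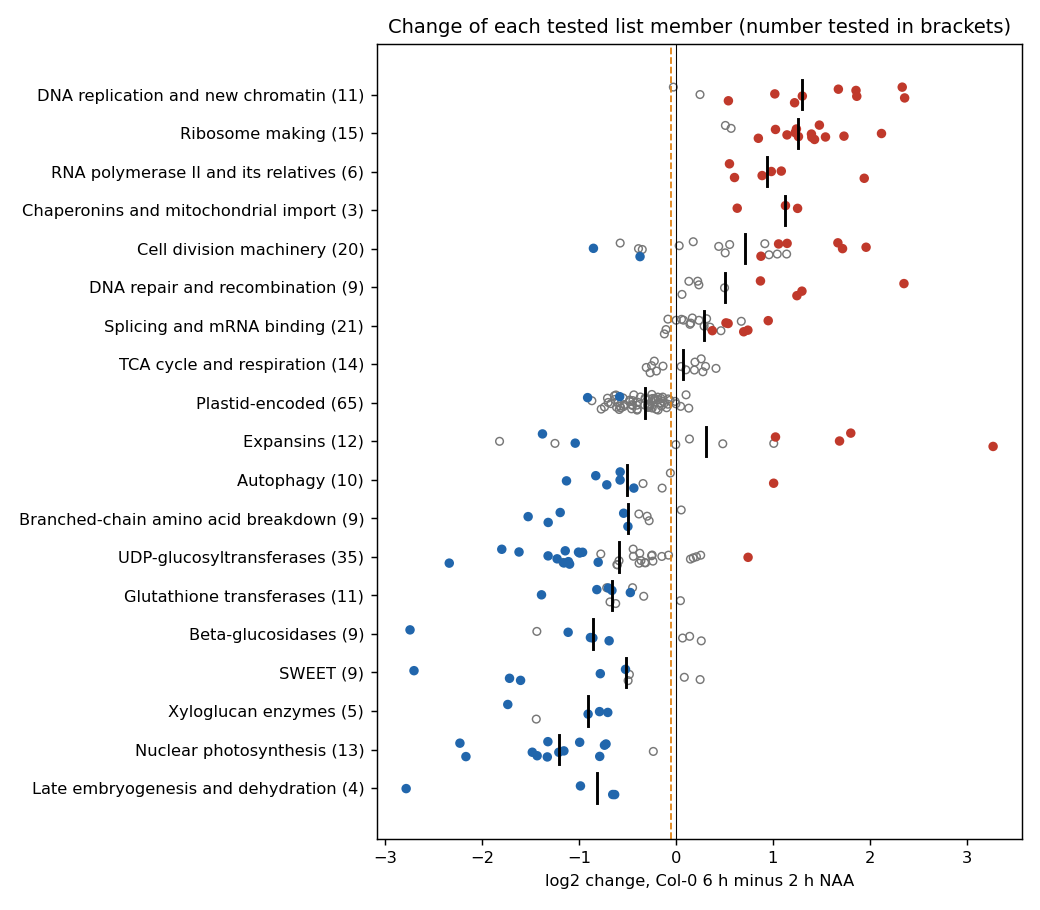
Log2 change from 2 h to 6 h of NAA in Col-0 of each tested member of 19 gene lists (1 point per gene, number tested in brackets), filled red when higher, filled blue when lower and open when not past the threshold, with the list median as a black bar and the median of all genes, -0.05, as a dashed line. All but 2 points of the ribosome making list are red, all but 1 of the nuclear photosynthesis list are blue, and the citric acid cycle list is open throughout.

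The clearest group fall was that of nuclear genes of photosynthesis, of which 12 of 13 tested were lower and 0 higher (median -1.21). PSAN (AT5G64040), a subunit of photosystem I, read 660.6 and 686.9 on the 2 h arrays and 140.2 and 118.0 on the 6 h arrays (-2.23, SE 0.20, adjusted p = 5.33e-06). PSAE-1 (AT4G28750), also of photosystem I, fell from 1106 and 1158 to 439.2 and 377.6 (-1.43, adjusted p = 0.000166), and LHCB4.2 (AT3G08940), an antenna protein of photosystem II, from 252.9 and 191.2 to 44.2 and 25.9 (-2.17, adjusted p = 0.000326). LHCB4.2 had been at 1564 and 1694 at 0 h, so its decline was well advanced at 2 h. PORB (AT4G27440), for chlorophyll synthesis, fell from 654.7 and 714.4 to 151.7 and 351.6 (-1.48, adjusted p = 0.00307), with 6 h replicates that differed more than 2-fold. The 1 that did not pass belongs to the Calvin cycle. Between 9 and 12 of the 13 were lower in every alternative setting and without any single array.

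Genes on the plastid genome stood lower as a group by less: their median was -0.32 over 65 tested genes, and 2 were called lower. Among the compared arrays, that count was 0 with 2 h replicate 1 or 6 h replicate 2 left out and 1 with 2 h replicate 2 left out. It was 7 without either slr-1 0 h array and 9 with only the compared arrays fitted. The 3 tested markers of green shoot tissue, LHCB4.2, PORB and PSAN, belong to the nuclear group, and their summed signal was 1568 and 1592 at 2 h and 336.1 and 495.5 at 6 h in Col-0. It was 3821 and 4238 at 0 h, 3430 and 2511 after mock, and 915.8 and 917.0 at 2 h against 852.4 and 1137 at 6 h in slr-1. In bulk segments, fewer cells of a type and less RNA per cell cannot be told apart, and the part of green tissue at the upper edge of the segment in these falls was not tested. The root hair markers EXPA7 and EXPA18 did not pass, with a summed signal of 899.9 and 329.2 at 2 h and of 724.8 and 311.1 at 6 h.

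The largest falls were of loci with high or middling signal at 2 h. AT4G30450 was at 16411 and 18472 at 0 h, 8804 and 6267 at 2 h and 418.4 and 188.4 at 6 h (-4.63, SE 0.28, adjusted p = 6.63e-07), and the adjacent locus number AT4G30460 followed at 6786 and 6614, 3635 and 3384 and 243.9 and 213.8 (-3.83, SE 0.26, adjusted p = 1.45e-06). The mock arrays of both stayed above 5000. AT4G11190 read 595.2 and 1336 on the 2 h arrays and 16.9 and 18.6 on the 6 h arrays (-4.64, SE 0.38, adjusted p = 2.62e-06), down to about the added 18.9, while the mock arrays read 3687 and 4549. AT3G18280 (from 12290.2 and 10652 to 1817 and 1355, -2.85, adjusted p = 1.81e-06) and AT5G43180 (from 5429 and 4675 to 771.3 and 447.6, -3.06, adjusted p = 1.81e-06) stood near their 0 h level at 2 h, with 0 h signals of 16313 and 12634 and of 5049 and 4614. AT2G34610, in contrast, had already fallen at 2 h, from 1695 and 951.5 to 224.8 and 239.8, and fell on to 12.6 and 14.9.

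**Figure D4:**
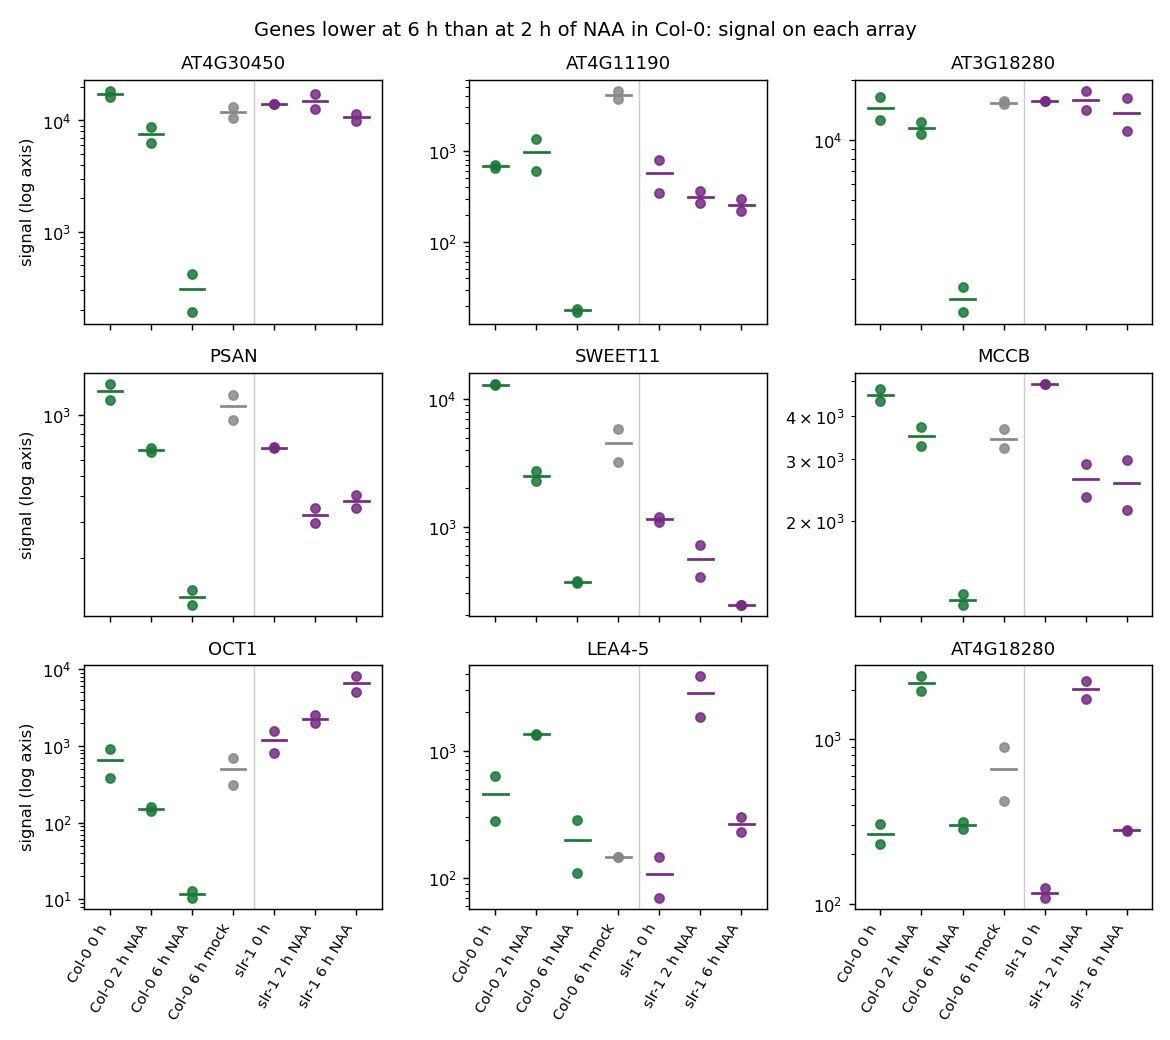
Signal on each array (points, log axis) and group mean (bars) of 9 genes that fell from 2 h to 6 h of NAA in Col-0, by group, coloured as in the plot of rising genes. In the upper row both Col-0 6 h NAA arrays lie below all other arrays, OCT1 is higher at 6 h than at 2 h on the slr-1 arrays, and LEA4-5 and AT4G18280 are high at 2 h and low at 6 h in both genotypes.

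Genes for proteases, transporters and single steps of metabolism were also among the falls. ATSBT5.2 (AT1G20160), a subtilisin-like protease, fell from 2984 and 1218 to 278.7 and 61.0 (-3.64, adjusted p = 8.23e-05) and SBT4.12 (AT5G59090), of the same family, from 5956 and 6204 to 2292 and 2195 (-1.43, adjusted p = 3.03e-05). The serine carboxypeptidase-like gene scpl31 (AT1G11080) fell from 480.2 and 486.3 to 40.2 and 94.5 (-2.62, adjusted p = 0.000251). BCAT4 (AT3G19710), which starts the chain elongation of methionine for glucosinolates, fell from 1803 and 1948 to 263.8 and 145.2 (-3.14, adjusted p = 0.000398). OCT1 (AT1G73220), an organic cation transporter, fell from 143.5 and 162.1 to 13 and 10.4 (-2.49, adjusted p = 0.000566), and AT2G41480, peroxidase 25, from 684.8 and 934.8 to 129.0 and 140.2 (-2.42, adjusted p = 5.33e-06). The lignin pathway genes CCR2 (-1.23) and HCT (-0.93) were lower, 2 of 4 tested.

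Branched-chain amino acid breakdown had 5 of 9 tested genes lower and 0 higher (median -0.50). Led by 3 genes of the leucine branch, the falls included MCCB (AT4G34030), a methylcrotonyl-CoA carboxylase subunit, from 3711 and 3274 to 1155 and 1243 (-1.53, adjusted p = 2.24e-05). Its partner subunit MCCA (AT1G03090) fell from 4708 and 4629.9 to 2023 and 2034 (-1.20, adjusted p = 0.000269). Isovaleryl-CoA dehydrogenase IVD (AT3G45300) fell from 5582 and 5097 to 2101 and 2151 (-1.32, adjusted p = 3.8e-05). The count was 3 without Col-0 2 h replicate 1 or either 6 h replicate. Autophagy had 6 of 10 lower and 1 higher (median -0.50), all 7 of them ATG8 genes, whose products coat the forming autophagosome. ATG8C (AT1G62040) fell from 2002 and 1778 to 1152 and 1133 (-0.71, adjusted p = 0.00226), while ATG8G (AT3G60640) rose from 1114 and 1145 to 2481 and 2115 (1.01, adjusted p = 0.00141) and was the 1 member that rose. The lower count was 2 without Col-0 2 h replicate 1 and 3 without either 6 h replicate.

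Genes of sugar transport and conjugation followed. Of 9 tested SWEET sugar transporter genes 5 were lower and 0 higher (median -0.52), a count that was 2 without Col-0 6 h replicate 1 and 3 without any other single array of the 4 compared. SWEET11 (AT3G48740), which exports sucrose, was at 12859.5 and 13296 at 0 h, 2278 and 2758 at 2 h and 362.2 and 375.0 at 6 h (-2.70, adjusted p = 9.29e-06). SWEET2 (AT3G14770), a root vacuolar transporter, differed in course, with 3684 and 4181 at 0 h, 5456 and 4782 at 2 h and 1751 and 1588 at 6 h (-1.60, adjusted p = 8.75e-05). Among beta-glucosidases 5 of 9 were lower and 0 higher, with BGLU44 (AT3G18080) from 739.0 and 770.7 to 85.9 and 108.2 (-2.75, adjusted p = 1.65e-06), BGLU46 at -0.88 and BGLU15 at -0.86, and 3 were lower without Col-0 6 h replicate 1.

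UDP-glucosyltransferases attach sugars to small molecules, auxin included, and 13 of 35 were lower and 1 higher (median -0.59), and the call of a higher gene was lost for 9 of the 14 arrays left out in turn. Over the 9 other settings the lower count lay between 10 and 15, and it also dropped without Col-0 6 h replicate 1 or 2 h replicate 2. UGT85A4 (AT1G78270) fell from 167.5 and 142.5 to 9.1 and 23 (-2.34, adjusted p = 0.000319) and UGT73B1 (AT4G34138) from 4497 and 5629 to 1973 and 2036 (-1.32, adjusted p = 2.76e-05). IAGLU (AT4G15550), annotated as an indole-3-acetate glucosyltransferase, had been higher at 2 h than at 0 h and returned from 6679 and 4726 to 1688 and 1952 (-1.62, adjusted p = 7.4e-05), against 1902 and 1419 at 0 h. Glutathione transferases had 5 of 11 lower and 0 higher (median -0.66), a count that was 1 without Col-0 6 h replicate 2, 2 without 2 h replicate 1 or 6 h replicate 1, and 3 without Col-0 2 h replicate 2, without either slr-1 2 h array or with no filter. GSTU25 (AT1G17180) was also highest at 2 h but, unlike IAGLU, stayed above its 0 h arrays at 6 h. It read 733.1 and 1328 at 0 h, 5537 and 5383 on the 2 h arrays and 2076 and 2073 on the 6 h arrays (-1.39, adjusted p = 0.00044).

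A further set of genes was higher at 2 h of NAA than at 0 h or at 6 h of NAA. AT4G18280 read 229.8 and 303.4 at 0 h, 1972 and 2410.1 at 2 h and 282.6 and 315.7 at 6 h (-2.79, SE 0.29, adjusted p = 1.59e-05). AT4G36500 was at 969.9 and 877.9, 4328 and 3876 and 1211 and 847.5 at the 3 times (-2.0, adjusted p = 4.15e-06), and PRN (AT3G59220), a pirin that binds the G protein alpha subunit, at 909.7 and 1052, 5666 and 5371 and 1639 and 1628 (-1.74, adjusted p = 3.22e-06). At 6 h these genes lay below the mock arrays, which read 1496 and 1550.3 for AT4G36500, 421.1 and 893.1 for AT4G18280 and 2289 and 2402 for PRN. With no mock at 2 h, whether the peak came with NAA or with the transfer was not tested.

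Some regulators linked to stress were lower at 6 h than at 2 h. WRKY53 (AT4G23810), known from leaf senescence and defence, read 68.5 and 131.8 at 0 h, 993.5 and 1060.1 at 2 h and 301.6 and 280.0 at 6 h (-1.76, adjusted p = 0.000682), and WRKY22 (AT4G01250), of immune signalling, 660.7 and 531.4, 1455 and 2123 and 561.4 and 575.8 (-1.60, adjusted p = 4.23e-05). Of 6 tested WRKY genes 4 were lower at 6 h than at 2 h and 0 higher, 2 without Col-0 6 h replicate 1. Of 13 genes of calcium and defence signalling 4 were lower, among them the U-box ligase genes PUB24 (AT3G11840, from 1029 and 1019.8 to 439.8 and 535.4) and PUB22 (-0.71), which restrain immune responses, and the calmodulin-like CML42 (-0.99).

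All 4 tested genes of late embryogenesis and dehydration were lower and 0 higher, led by LEA4-5 (AT5G06760) with 1362 and 1334 on the 2 h arrays and 110.0 and 286.0 on the 6 h arrays (-2.79, SE 0.46, adjusted p = 0.000473). COR47 (AT1G20440), a dehydrin that was among the brightest probe sets, fell from 50373 and 48132 to 25062 and 24637 (-0.99, adjusted p = 0.00683). Their 0 h signals were 633.1 and 282.9 for LEA4-5 and 40204 and 35385 for COR47. Without Col-0 2 h replicate 1, 2 h replicate 2 or 6 h replicate 1, or with no filter, the count was 2.

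Of 8 bHLH factors 5 were lower, 3 without Col-0 6 h replicate 1. They included 2 of the iron deficiency response, BHLH101 (AT5G04150, from 1197 and 1542 to 320.4 and 309.9, -2.04, adjusted p = 8.95e-05) and PYE (AT3G47640, from 1538 and 1795 to 705.4 and 850.3, -1.08, adjusted p = 0.00164), and LHW (-0.71), which directs early divisions of vascular cells. The metal transporter ZIP6 (-0.90) and MYBC1 (-1.31) were lower as well. Among 9 signalling peptide genes RALFL34 (AT5G67070), known from lateral root initiation, was the 1 that rose, from 436.3 and 488.6 to 1164 and 974.1 (1.17, adjusted p = 0.00043). RALFL32 (AT4G14010) fell from 10514 and 8254 to 2944 and 2739.7 (-1.71, adjusted p = 2.55e-06), 1 of 3 RALF-like genes that were lower.

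The same step was then compared between Col-0 and slr-1, whose arrays are not shared. Both tests came from 1 fit, so they used the same estimate of the spread of each probe set. In slr-1, 69 probe sets were higher and 112 lower at 6 h than at 2 h, 1.22% of those tested (0.464% and 0.753%), and the difference of the 2 changes passed for 1465 or 9.84%, 683 positive and 782 negative (4.59% and 5.25%). At an unadjusted p under 0.05 there were 2287 probe sets in slr-1 against 6398 in Col-0. Of the probe sets higher in slr-1, 45 (65.2%) were also higher in Col-0, which is 1.95% of the Col-0 list, and of those lower in slr-1 96 (85.7%) were also lower in Col-0, 3.66% of its list. Among the 2304 that rose in Col-0 the median slr-1 change was 0.27, and 1936 of them were above 0. The median was -0.16 among the 2624 that fell, with 1858 below 0. Over all 14883 tested probe sets the slr-1 median was 0.06, with 8487 above 0 and 6396 below 0. The slr-1 counts rest on single arrays: without slr-1 6 h replicate 2 they were 8 and 45, without 6 h replicate 1 they were 11 and 66, without 2 h replicate 1 they were 13 and 18, and without 2 h replicate 2 they were 15 and 43. They were 27 and 48 with no trend of the variance. The difference counts were 164 and 346 without Col-0 6 h replicate 1, 266 and 391 without 2 h replicate 1, 329 and 375 without 2 h replicate 2, and 408 and 499 without 6 h replicate 2. They were 419 and 530, 276 and 414, 514 and 600, and 290 and 359 without slr-1 2 h replicates 1 and 2 and 6 h replicates 1 and 2, in that order.

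**Figure D5:**
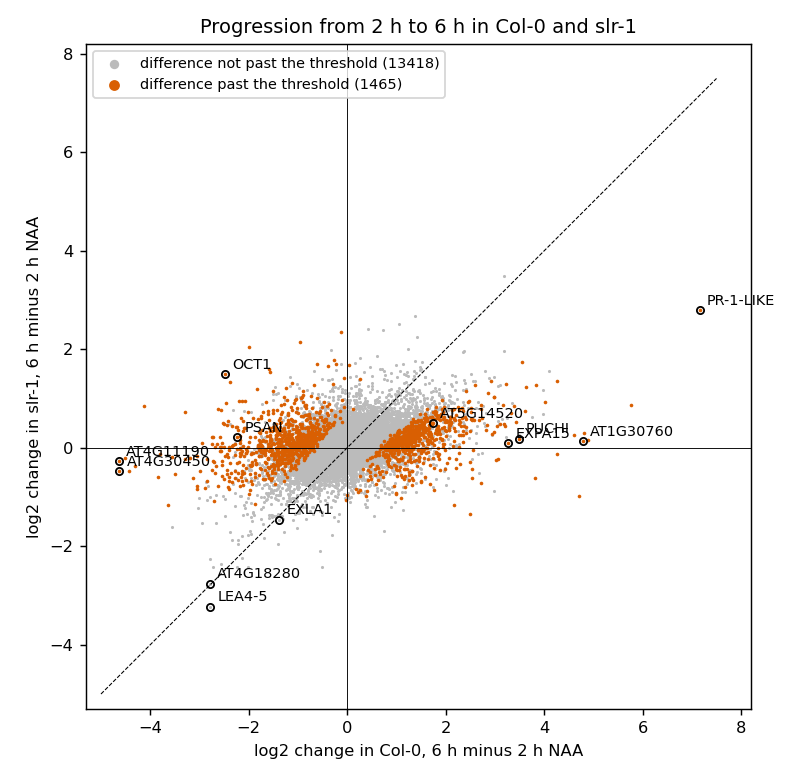
Log2 change from 2 h to 6 h of NAA in slr-1 (y axis) against that in Col-0 (x axis) for 14883 probe sets, with the 1465 whose difference passed the threshold in orange and equality as a dashed line. Most orange points spread along the x axis near 0 in slr-1, OCT1 lies in the upper left at -2.49 and 1.49, and LEA4-5, AT4G18280 and EXLA1 lie near the dashed line.

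PUCHI read 170.2 and 331.5 at 2 h and 297.4 and 251.4 at 6 h in slr-1, so its arrays overlapped, and the difference from Col-0 was 3.3, SE 0.41, adjusted p = 0.000484. AT1G30760 read 1654 and 3860.1 at 2 h and 3046 and 2541 at 6 h (difference 4.65, adjusted p = 0.000618), which is above the Col-0 2 h arrays at both times and far below the Col-0 6 h arrays. LBD16, called in neither genotype, stood at 1811 and 1746 at 2 h and 980.0 and 1288 at 6 h in slr-1 (-0.65, adjusted p = 0.096), below every Col-0 NAA array, and its difference passed (1.08, adjusted p = 0.0167). That call was lost without Col-0 6 h replicate 1 (adjusted p = 0.08), Col-0 2 h replicate 2 (0.0677) or slr-1 6 h replicate 1 (0.0585). EXPA15 read 565.9 and 667.4 at 2 h and 810.0 and 529.0 at 6 h (difference 3.18, adjusted p = 0.00107). For the ribosome gene AT5G14520 the slr-1 arrays read 2343 and 2169 at 2 h and 3287 and 3109.5 at 6 h, a change of 0.50, adjusted p = 0.101, and the difference was 1.23, adjusted p = 0.00221. In that list 9 of 15 differences passed as positive. In the replication list 2 of 11 did, POLA3 (1.61, adjusted p = 0.0101, with slr-1 arrays at 303.9 and 235.0 at 2 h and 396.6 and 540.1 at 6 h) and PRL (1.54, adjusted p = 0.0161), and the PRL call was lost without Col-0 6 h replicate 1 (adjusted p = 0.0816), Col-0 2 h replicate 2 (0.0634) or slr-1 2 h replicate 2 (0.069). ICU2 did not pass, with 144.1 and 226.0 at 2 h and 395.8 and 482.0 at 6 h in slr-1 and an interval of -0.24 to 1.59 for the difference (95%).

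Among the falls, AT4G30450 read 12728 and 17353 at 2 h and 11354 and 9984 at 6 h in slr-1 (difference -4.15, adjusted p = 0.000131) and AT3G18280 14066 and 17615 at 2 h and 16252 and 11029.8 at 6 h (difference -2.62, adjusted p = 0.00038), both near their slr-1 0 h signals of 14145 and 14180.1 and 15683 and 15611. Of the 13 nuclear photosynthesis genes none was called in slr-1 in either direction (median 0.10), and 9 differences passed as negative, with PSAN at 351.8 and 296.1 at 2 h and 351.4 and 407.6 at 6 h (difference -2.45, adjusted p = 0.000382). PSAN in slr-1 was lower than in Col-0 at 0 h, 684.7 and 693.7 against 1413 and 1180.0. The slr-1 level differed between members of this list. PSAE-1 had slr-1 means of 477.4 at 2 h and 515.0 at 6 h, near its Col-0 6 h arrays of 439.2 and 377.6. RCA had 2709.4 and 2714.4, below its Col-0 6 h arrays of 2849.9 and 3841.4. CHLM, with 1170.0 and 1061.8, stayed above its Col-0 6 h arrays of 579.1 and 528.2, as PSAN did. In the leucine branch MCCB read 2342 and 2922 at 2 h and 2152 and 2986 at 6 h (difference -1.48, adjusted p = 0.00231). OCT1 read 816.8 and 1561 at 0 h, 2002 and 2566 at 2 h and 5089.7 and 8087 at 6 h in slr-1, a change of 1.49 that did not pass by itself (adjusted p = 0.111), and the difference was -3.98, SE 0.60, adjusted p = 0.0017. Similarly AT5G67150 and AT3G46700 had changes of -2.21 and -2.14 in Col-0 and of 0.94 and 0.96 in slr-1.

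Some genes moved from 2 h to 6 h in slr-1 too. AT4G18280 read 123.8 and 108.1 at 0 h, 2271 and 1758 at 2 h and 276.8 and 281.9 at 6 h (-2.76, adjusted p = 0.000817), and the interval of the difference from Col-0 was -0.91 to 0.85 (95%). LEA4-5 read 3819 and 1834 at 2 h and 303.5 and 232.2 at 6 h (-3.23, adjusted p = 0.00542), with an interval of -0.96 to 1.85, and EXLA1 2339 and 3472 at 2 h and 780.6 and 1346 at 6 h (-1.46, adjusted p = 0.023), with an interval of -0.76 to 0.92. COR47 changed by -1.29 (adjusted p = 0.0226), with an interval of -0.44 to 1.04. Differences of the sizes inside such an interval remain possible with these arrays. 

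When set against 0 h, the mock arrays shared no array with the compared groups, though the fit and its estimate of the spread were the same. The mock arrays bear on the time after transfer, though only at 6 h. The description field of both mock samples names tissue of another organism, although the remaining labels name the root segment. Mock against 0 h called 443 probe sets higher and 313 lower, 5.08% of those tested (2.98% and 2.1%). Single arrays carried these counts, which were 165 and 94 without Col-0 0 h replicate 2, 175 and 166 without mock replicate 1, 304 and 177 without 0 h replicate 1 and 305 and 270 without mock replicate 2. Of the 2304 probe sets that rose from 2 h to 6 h of NAA, 79 (3.43%) were higher and 13 (0.564%) lower in mock than at 0 h, with a median of 0.13. Of the 2624 that fell, 4.65% were higher and 181 (6.90%) lower, with a median of -0.11. Without Col-0 0 h replicate 2, 32 of those that rose were higher and 4 lower in mock, and 49 and 62 of those that fell. These counts were 32 and 10 and 50 and 73 without mock replicate 1, 60 and 8 and 67 and 86 without 0 h replicate 1, and 82 and 12 and 73 and 140 without mock replicate 2. Genes named above that mock moved were AT4G11190, PRN, AT4G18280, AT4G36500, BCAT4, SBT4.12, GH9C2, GSTU25, PUB22 and AT3G09720, which were higher in mock than at 0 h, and SWEET11, LHCB4.2, BGLU15 and IVD, which were lower.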

How the data were processed

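The deposited values are MAS5.0 signal intensities, named as such in the series' design text, with 1 value per probe set and array on a linear scale as their range shows. Of that software, settings and target value are not given in the sources used here. No detection calls entered. Arrays were grouped by sample title. Signals were transformed as log2(signal + 18.9), the pooled 10th percentile of all signals, which compresses changes near that value, with no further normalization. All 14 arrays entered 1 fit of group means with limma 3.58.1 in R 4.3.3 (lmFit, eBayes with a variance trend, 7 residual and 6.57 prior degrees of freedom), with Benjamini-Hochberg adjustment over 14883 probe sets and a threshold of 0.05. The fit was tested on simulated data with known changes in probe sets above the median level and independent normal noise of the fitted spread. Such data could not show how the fit behaves near the floor or with effects of single arrays. P-values measure the spread between 2 arrays a group, which the design text calls biological repeats. Probe sets took genes from GEO's platform annotation, with symbols updated through RefSeq's TAIR10.1 table by gene ID. Of those tested 8087 had 1 gene, 300 several and 6496 none, so lists miss unnamed genes, and a gene with several probe sets took the brightest.

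The members and gene lists were chosen with earlier results of these data known, and 29 of 70 lists were added after the annotation was read, so list counts are descriptions. Genes to name came from a rule on the called genes whose arrays did not overlap: the largest rises and falls, those near or well above their 0 h level at 2 h, the largest changes per list, the largest differences from slr-1, and 7 fixed genes. The text names part of them, mostly those whose call held in the alternatives, and further list members to complete a count, chosen after their values were seen. Alternatives were other offsets, filters and normalization, no variance trend, only the compared arrays, a replicate block, and leaving out each array.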

Additional observations from a re-analysis of the deposited data

Results flagged for a closer look

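The change from 2 h to 6 h of NAA differed between Col-0 and slr-1, by the test of that difference (limma, adjusted p under 0.05), for each of the following genes, given as the log2 change in Col-0 minus that in slr-1. Positive differences were found for AT1G30760 (4.65), PUCHI (3.3), EXPA15 (3.18), AT5G14650 (2.92), AT1G29980 (2.65), GH9C2 (1.73), POLA3 (1.61), AUR1 (1.56), PRL (1.54), AT5G14520 (1.23), NRPA2 (1.09) and LBD16 (1.08). The AUR1 call was lost without Col-0 6 h replicate 1 (adjusted p = 0.0563), and the losses for PRL and LBD16 are given above.

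Negative differences were found for AT4G11190 (-4.36), AT4G30450 (-4.15), OCT1 (-3.98), scpl31 (-3.39), AT4G30460 (-3.24), AT5G67150 (-3.15), AT3G46700 (-3.10), AT2G34610 (-3.05), AT5G43180 (-2.89), BGLU44 (-2.83), AT3G18280 (-2.62), PSAN (-2.45), AT2G41480 (-2.24), GSTU25 (-1.69), PSAE-1 (-1.53) and MCCB (-1.48). Smaller ones were those of UGT73B1 (-1.12), IVD (-1.08), RALFL32 (-1.08) and SBT4.12 (-1.07). The slr-1 change passed by itself for 1 of the 32 genes, RALFL32 (-0.63, adjusted p = 0.0426). Among the others the slr-1 changes farthest from 0 were those of OCT1 (1.49) and AT5G14650 (1.35). The slr-1 6 h replicate 2, the array with the low maximum, enters each of these differences. Except for PRL, AUR1 and LBD16, each difference was also called without that array or any other single array. Groups of 2 arrays were too small for a test of single outlying arrays.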

How the results depend on the processing

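Over 9 other settings the Col-0 counts stayed between 1996 and 2812 higher and between 2364 and 2958 lower. Leaving out 1 array at a time they ranged from 1410 to 2471 and from 1561 to 2796, lowest without Col-0 6 h replicate 1, and the lone array left in a group is then assumed to vary like the others. The slr-1 counts, 69 and 112, ranged from 8 to 90 and from 18 to 144 without 1 array, and were 27 and 48 with no trend of the variance, the cause of which was not tested. The difference counts ranged from 164 to 812 and from 346 to 881 without 1 array. With the replicate block they were 2236 and 2586 in Col-0, 64 and 109 in slr-1 and 628 and 729 for the difference. No label says that a replicate number marks a shared batch, and deviations from the group means correlated at 0.12 between same-numbered Col-0 2 h and 6 h arrays and at 0.091 in slr-1, so no pairing was assumed. Of 117 named changes that were called, 106 kept their call in every setting where they were tested, and 11 lost it without at least 1 array, namely TUB7, IQD24, iqd15, GH3.1, GH3.17, TOP3A, TOPII, HTB1, HTB2, ATMAP65-6 and KEU. Of these, HTB1, HTB2, KEU and GH3.1 also lost it in another setting, HTB1 with the replicate block (adjusted p = 0.0571), and none of the 117 changed sign. Most genes were named because their call held, so these shares do not measure the stability of all calls. Of 32 differences 29 kept their call. Of 84 list counts 38 moved by over 1.5 times in at least 1 setting. The 60th percentile threshold left out 15 named genes and the filter on the compared arrays 4, namely OCT1, UGT85A4, LHCB4.2 and AT5G67150. Those 4 were tested only because they passed the threshold in another group. Only 2 arrays per group and signals near the floor limit how precisely the largest rises are known.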

Other observations

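Further small families were looked up in Col-0 between 2 h and 6 h. Of 6 tested tetraspanin genes, for proteins of membrane domains, 3 were lower and 0 higher, with TET5 from 1256 and 1405 to 756.3 and 605.2 (-0.95, adjusted p = 0.000801) and TET3 at -0.58, and 2 to 3 were lower without any single array. Of 9 tested cytochrome P450 genes 2 were lower and 0 higher, a share near that of all probe sets. Genes of the cytoskeleton moved both ways. The tubulin gene TUB7 rose (0.95, adjusted p = 0.00723), as did the calmodulin-binding scaffold genes IQD24 (3.34, adjusted p = 0.00565) and iqd15 (1.64, adjusted p = 0.0164), and none of these 3 was called without Col-0 6 h replicate 1. The tubulin gene TUB6 changed by -0.66, the scaffold gene iqd32 fell from 1232 and 1419 to 756.3 and 714.0 (-0.83, adjusted p = 0.00209), and TRM21, of a family linked to microtubules, fell from 1111 and 1309 to 703.1 and 641.2 (-0.83, adjusted p = 0.00335).

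Counts of 8 further lists were between 0 and 4 in each direction, and for each list at least 1 of its counts moved by over 1.5 times when 1 array was left out. They were 1 higher and 1 lower of 7 tubulin genes, 3 and 3 of 8 IQD genes, 0 and 2 of 6 TRM genes, 0 and 2 of 6 NET actin-binding genes, 3 and 2 of 15 serine carboxypeptidase-like genes, 1 and 4 of 12 ubiquitin-conjugating enzyme genes, 0 and 3 of 11 exocyst and secretion genes, and 0 and 1 of 12 bZIP genes. Over all tested probe sets 15.5% were higher and 17.6% lower.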
